A study of Mus musculus with 12 samples.

Results

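The enzymes described here make serine, asparagine, proline, mitochondrial one-carbon units and cysteine, and their transcripts were measured in mouse embryos and embryonic stem (ES) cells with and without Dis3l. The 10 genes were chosen by name: Asns, Phgdh, Psat1, Psph, Shmt2, Mthfd2, Aldh18a1, Pycr1, Cbs and Cth. All 10 were listed once in each of the 2 deposited tables, among 45706 genes listed for blastocysts and 13009 for ES cells. All 10 also had an adjusted p-value in both, among 15209 tested blastocyst genes and 10739 tested ES cell genes.

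The study asked what the loss of Dis3l, a ribonuclease of the exosome that degrades RNA in the cytoplasm, does to transcripts. The labels list 12 samples in 4 groups of 3: blastocysts labelled Dis3L WT, blastocysts labelled Dis3L KO, and ES cells of either genotype. Blastocysts are embryos just before implantation; they came from females given 10 units of PMSG and then hCG, were taken 96 h after hCG, and were made into libraries one embryo at a time by tagging cDNA with Tn5 transposase. ES cells are cultured pluripotent cells; these lines were derived and grown on inactivated mouse embryonic fibroblasts in medium with 15% FBS, nonessential amino acids, L-glutamine and 500 IU/ml LIF, and their libraries were stranded and depleted of ribosomal RNA. Nonessential amino acid supplements contain serine, asparagine and proline, and both ES cell groups had one. The strain, the allele, the sex of the embryos and the number of independent ES cell lines are not given in the labels, and whether the samples of a group are separate cultures is not stated, so the spread between them may be partly technical.

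Serine is made from a glycolytic intermediate in 3 steps by Phgdh, Psat1 and Psph. In mitochondria, Shmt2 splits serine into glycine and a one-carbon unit, which Mthfd2 oxidises on its way to purines, thymidylate and formate. Asns makes asparagine from aspartate and glutamine, Aldh18a1 and Pycr1 make proline from glutamate, and Cbs and Cth carry sulfur from homocysteine to cysteine. Most of these enzymes are known targets of ATF4, a transcription factor translated when amino acids run short or the endoplasmic reticulum is stressed.

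Neither deposited table holds a value per sample. Each holds the authors' mean of normalised counts over the libraries, a log2 fold change with its standard error, and DESeq2 p-values. The whole reads of every library were recovered from these numbers, for 6 blastocyst libraries (3 on each side of the comparison) and for 4 ES cell libraries (2 on each side), although the labels list 6 ES cell samples. The tables do not say which genotype was divided by which. The libraries are therefore called positive side (higher where the log2 fold change is above 0) and negative side, they are numbered within a side, and they are assigned neither to samples nor to a genotype. The sides of the 2 tables need not correspond. Recovered reads added up to between 1205834 and 2829754 per blastocyst library and between 1103843 and 1857273 per ES cell library. Dis3l itself had 26, 8 and 0 reads in positive-side blastocyst libraries 1, 2 and 3, against 10, 4 and 8 on the negative side. In ES cells Dis3l had 14 and 8 reads on the positive side against 39 and 39 on the negative side. For Dis3l in ES cells the adjusted p in the authors' deposited table was 0.445 (DESeq2 Wald test with Benjamini-Hochberg adjustment).

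No member passed an adjusted p of 0.05 in either of the authors' deposited tables (DESeq2 Wald test with Benjamini-Hochberg adjustment). At that threshold 0.0986% of all tested blastocyst genes and 0.261% of all tested ES cell genes were called. At an unadjusted p under 0.05, 1 of the 10 members was called in blastocysts (Shmt2), where 6.21% of all tested genes were, and 0 of 10 in ES cells, where 5.62% were. In blastocysts 9 of the 10 log2 fold changes were above 0, Cbs being the exception, and 48.3% of all tested genes were above 0. The median over the members was 0.65, against -0.04 over all 15209 tested genes. The members were chosen with earlier results of these data known, so these shares are no test of them. In ES cells 5 were above 0 and 5 below (50% of all tested genes were above 0), with a median of 0.00 for the members and for all 10739 tested genes alike. Both materials are RNA of whole embryos or whole cultures, where fewer cells of a type and less RNA per cell cannot be told apart.

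**Figure D1:**
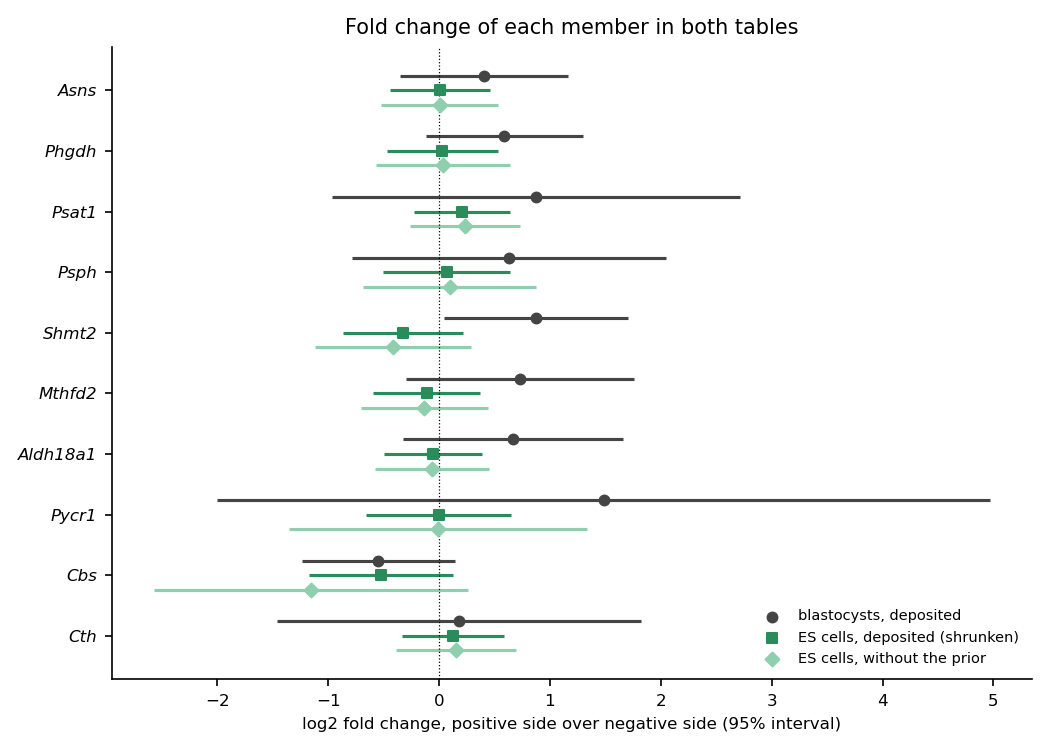
Log2 fold change of each of the 10 enzymes (positive side over negative side, horizontal axis) with its 95% interval, in blastocysts (dark dots), in ES cells as deposited (squares) and in ES cells recomputed without the authors' prior (diamonds). The blastocyst values lie above 0 for 9 genes with intervals that reach or cross 0 for all but Shmt2, whose interval starts at 0.04; the ES cell values lie within 0.24 of 0 except for Shmt2 and Cbs.

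The members with a match to the letters of a C/EBP-ATF response element, the kind of site ATF4 binds together with a C/EBP partner, were looked up in RefSeq promoters (GRCm38.p6), each 300 bases long with 250 before the start and 50 after. The letters searched were TGATGNAAN on either strand, overlaps allowed. Of the 10 members 9 had an entry, and 2 of these held a match: Asns and Pycr1. The 30 bases around each match are shown because Asns and Pycr1 are the only members that hold it; they read 5′ to 3′ on the gene's strand, with the match in capitals:
Asns: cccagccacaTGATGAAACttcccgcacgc
Pycr1: gccctgtgtaTGATGCAATgcacaaggctc
The Asns stretch is chr6:7693213-7693242 on the minus strand, and its match begins 23 bases before the RefSeq start. GENCODE places the start of Asns 45 bases further upstream, so there the match lies in the 5′ untranslated part of the first exon. The Pycr1 stretch is chr11:120643832-120643861, also on the minus strand, with a match that begins 103 bases before the start and lies outside every annotated exon of Pycr1. Over all 32851 promoters, 3.95% held a match on either strand, and over all 27025 genes with an entry 4.50% did. Phgdh, Psat1, Psph, Shmt2, Mthfd2, Aldh18a1 and Cbs held no such letters in this window, and Cth had no entry. In a list of 23 genes of the ATF4 axis (Atf4 with its kinases, partners, stress effectors and amino acid transporters), 6 of the 22 with an entry held a match: Atf3, Chac1, Nupr1, Slc1a4, Slc7a11 and Trib3. With only the bases before the start searched, 4 of the 22 held a match, against 3.89% of all genes with an entry. A match is a run of letters and was not tied to binding in these samples.

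Asns (chromosome 6, 7675169 to 7693254), the only enzyme that makes asparagine, had 1022, 1112 and 873 normalised counts in positive-side blastocyst libraries 1, 2 and 3. On the negative side Asns had 361, 1159 and 752. Negative-side library 2 held the highest value of all 6 and negative-side library 1 the lowest, so the sides overlapped. The side means were 1003 ± 121 and 758 ± 399 (SD, n = 3 each), and the log2 fold change in the authors' deposited table was 0.41 (SE 0.39, adjusted p = 0.819). In ES cells Asns had 1379 and 894 normalised counts on the positive side, against 1000 and 1265 on the negative side. The positive-side values enclosed the negative-side ones, and the deposited log2 fold change was 0.01 (SE 0.23).

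Phgdh (chromosome 3, 98313170 to 98339990), which catalyses the first and committed step of serine synthesis, had 868, 1179 and 823 normalised counts on the positive side of the blastocyst comparison. Its negative-side values were 527, 959 and 423. As for Asns, negative-side libraries 1 and 3 lay below every positive-side library and negative-side library 2 did not. The side means of Phgdh were 957 ± 194 and 636 ± 284 (SD, n = 3 each), with a log2 fold change of 0.59 (SE 0.36, 95% interval -0.12 to 1.29, adjusted p = 0.811).

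Psat1 (chromosome 19, 15904678 to 15947337), the aminotransferase of the serine pathway, varied most in absolute counts: 774, 1882 and 3337 on the positive side, against 427, 2350 and 489 on the negative side. Its highest blastocyst library held 7.82 times the normalised count of its lowest. The log2 fold change was 0.88, but with an SE of 0.94 the interval ran from -0.96 to 2.71. Psph (chromosome 5, 129765558 to 129787449), the phosphatase of the last step, was the least abundant of the 3, with 62.8, 205 and 144 normalised counts on the positive side, against 106, 138 and 20.1 on the negative side. Here negative-side library 1 was not low: it lay above positive-side library 1. The lowest Psph value, in negative-side library 3, rested on 14 reads, and on fewer fragments if both reads of a pair were counted. The deposited log2 fold change of Psph was 0.63 (SE 0.72, adjusted p = 0.887).

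The ES cell libraries differed far less for the 3 serine genes. Psat1 had 550 and 506 normalised counts on the positive side, against 495 and 401 on the negative side, which did not overlap. Phgdh had 197 and 159 against 183 and 166, and Psph 120 and 71.1 against 90.3 and 89.9, with overlap in both. The deposited log2 fold changes were 0.21 for Psat1, 0.03 for Phgdh and 0.07 for Psph, with standard errors of 0.22 to 0.29.

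Shmt2 (chromosome 10, 127517123 to 127522444), the mitochondrial serine hydroxymethyltransferase, had 490, 566 and 608 normalised counts in the positive-side blastocyst libraries. Its negative-side values were 153, 473 and 285. All 3 positive-side values lay above all 3 negative-side values, by 490 against 473 at the nearest. Shmt2 was the only member whose sides did not overlap in blastocysts; among recovered genes with a mean of at least 20 the sides of 12.6% did not overlap, 5.97% with the positive side higher. The side means were 554.7 ± 59.97 and 303.6 ± 160.5 (SD, n = 3 each), a ratio of 1.83. The log2 fold change was 0.87 (SE 0.42, 95% interval 0.04 to 1.70), with an unadjusted DESeq2 p of 0.0393 and an adjusted p of 0.769.

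Mthfd2 (chromosome 6, 83305691 to 83317606), the mitochondrial methylenetetrahydrofolate dehydrogenase, had 251, 471 and 327 normalised counts on the positive side, against 87.8, 375 and 170 on the negative side. Negative-side libraries 1 and 3 were the lowest of the 6 and negative-side library 2 was above all but 1 of the others. Its log2 fold change was 0.73 (SE 0.52, adjusted p = 0.811).

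In ES cells the values of the 2 mitochondrial enzymes leaned to the other side of zero, which is not a difference between materials because the sides need not correspond. Shmt2 had 354 and 171 normalised counts on the positive side, against 433 and 272 on the negative side, which overlapped, for a deposited log2 fold change of -0.32 (SE 0.28). Mthfd2 was the steadiest member of all, with 188 and 191 against 207 and 208. The Mthfd2 sides did not overlap, yet the ratio of the side means was 0.91 and the log2 fold change -0.11 (SE 0.24). In the ES cell table the sides of 3 of 10 members did not overlap (Psat1, Mthfd2 and Cbs), while 40.9% of recovered genes with a mean of at least 20 had sides that did not.

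Aldh18a1 (chromosome 19, 40550257 to 40588463), which makes the first proline precursors from glutamate, had 988, 1076 and 926 normalised counts in the positive-side blastocyst libraries. On the negative side it had 220, 1329 and 334. The positive-side libraries lay close together, negative-side library 2 was the highest of the 6, and the other two lay far below every positive-side library. The log2 fold change of 0.67 had an SE of 0.51 and an adjusted p of 0.811 in the authors' deposited table.

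Pycr1 (chromosome 11, 120635712 to 120643769), a mitochondrial enzyme of the last step of proline synthesis, had 94.2, 223 and 309 normalised counts on the positive side. Its negative-side values were 29.7, 194 and 0: the 3 libraries held 48, 174 and 0 reads. Library 3 of the negative side was the only library in which any member had no read. If reads are independent, a count of 0 there allows up to 4.32 normalised counts (3 reads). Of the counts above 0 in that library 96.4% were even. The bound would be higher if both reads of a pair were counted, which was not tested. The log2 fold change of 1.48 was the highest among the members, and its SE of 1.78 was also the highest.

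The side means of both proline genes were nearly equal in ES cells. Aldh18a1 had 356 and 315 normalised counts on the positive side, against 365 and 336 on the negative side, with a deposited log2 fold change of -0.05 (SE 0.23). Pycr1 rested on few reads, 34 and 19 against 42 and 13, and its libraries ran from 12.6 to 39.9 normalised counts. Its log2 fold change was -0.00 (SE 0.33), and the ratio of the reads moved between -0.61 and 1.03 with 1 library left out.

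Cbs (chromosome 17, 31612623 to 31637199), which joins homocysteine and serine to cystathionine, went the other way in blastocysts. It had 388, 465 and 400 normalised counts on the positive side, against 841, 433 and 552 on the negative side. Negative-side libraries 1 and 3, lowest for most other members, were the highest for Cbs, and library 2 again lay among the positive-side libraries. The log2 fold change was -0.55 (SE 0.35, adjusted p = 0.811). Cth (chromosome 3, 157894248 to 157925077), which releases cysteine from cystathionine, had 120, 95.4 and 16.0 normalised counts on the positive side, against 119, 55.7 and 28.8 on the negative side. Cth was high in library 1 and low in library 3 of both sides and gave a log2 fold change of 0.18 (SE 0.84). Library 1 is the deepest and library 3 the shallowest of each side, and the part of depth was not tested.

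The transsulfuration pair also stood apart from each other in ES cells. Cth had 869 and 639 normalised counts on the positive side, against 552 and 807 on the negative side, so the sides overlapped, and its deposited log2 fold change was 0.13 (SE 0.23). Cbs had 17 and 10 reads on the positive side, against 19 and 43 on the negative side. Its deposited log2 fold change of -0.53 (SE 0.33) is pulled towards 0 by the authors' prior; without the prior it was -1.15 (SE 0.72, 95% interval -2.57 to 0.26). It was -0.43 without negative-side library 2, which held 43 of the reads, and -1.63 without negative-side library 1, each with 1 library left on that side. No other member moved by more than 0.10 when the prior was taken out.

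**Figure D2:**
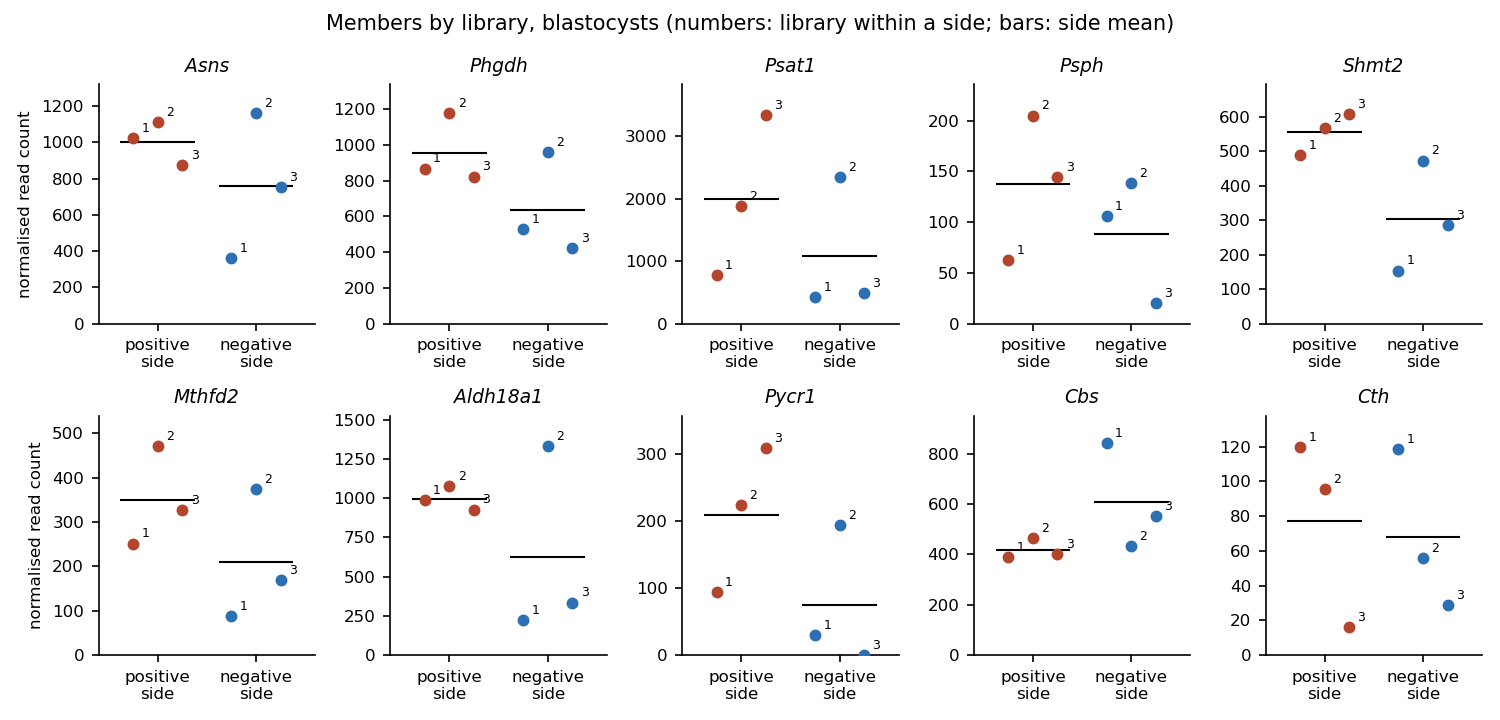
Normalised read count (vertical axis, from 0) of each of the 10 enzymes in the 6 blastocyst libraries, positive side left and negative side right, with the library number beside each point and the side mean as a bar. For 7 enzymes negative-side libraries 1 and 3 are the 2 lowest points while negative-side library 2 is higher, above every positive-side library for Asns and Aldh18a1; for Cbs the same 2 libraries are the highest.

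**Figure D3:**
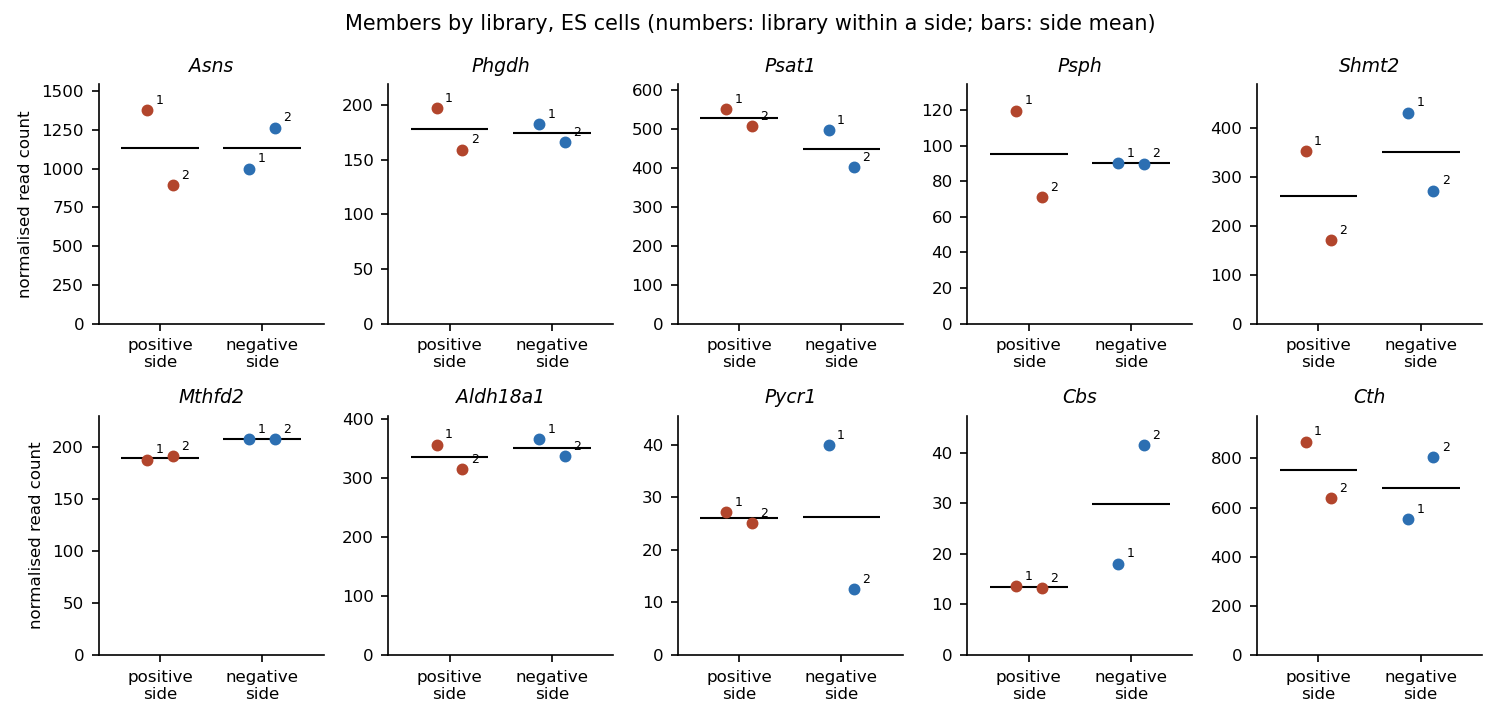
Normalised read count (vertical axis, from 0) of each of the 10 enzymes in the 4 ES cell libraries, drawn as for blastocysts. The side means lie close together except for Shmt2 and Cbs, with Cbs and Pycr1 on fewer than 50 reads in every library.

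Across the blastocyst libraries the members were not low on the negative side as a whole. In 7 of 10 (Asns, Phgdh, Psat1, Shmt2, Mthfd2, Aldh18a1 and Pycr1) negative-side libraries 1 and 3 lay below the other 4, a pattern held by 13.9% of recovered genes with a mean of at least 20. In 8 of 10 negative-side library 2 was the highest of its side, which was so for 36% of those genes. Negative-side library 2 was above the gene's own mean for 8 members, whereas negative-side library 1 was for 2 and negative-side library 3 for 1. The positive-side libraries were above it for 5, 9 and 7 members. This grouping of libraries was read off the members' values, so no test was made of it. By size factor, negative-side library 1 was the largest of the 6 (1.62) and negative-side library 3 the smallest (0.695). The coefficient of variation over the 6 libraries ran from 33.3% to 84.8% among the members, with a median of 51.9%. Over recovered blastocyst genes the median was 43.3% at a mean of at least 20 and 35.6% at means of 70 to 1600. In ES cells it ran from 5.35% to 62.5% among the members, with a median of 20.1%. There the median was 20.1% over the 8778 recovered genes with a mean of at least 20 and 17.1% at means of 70 to 1600.

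Because negative-side library 2 stood with the positive side, each fit was repeated with 1 library left out, at the dispersions behind the deposited standard errors. Without negative-side library 2 the log2 fold change was 1.85 for Aldh18a1 (SE 0.57), 1.35 for Shmt2 (SE 0.47) and 2.12 for Psat1 (SE 1.049). It was 3.80 for Pycr1 (SE 2.00), 1.45 for Mthfd2, 1.11 for Psph, 1.01 for Phgdh and 0.85 for Asns. Cth was at 0.06 and Cbs at -0.74. That library was singled out from the members' own values, so larger sizes without it follow from the choice. These sizes are therefore no test of the grouping, and no p-value is given for them. Whichever blastocyst library was left out, 0 of 10 members passed an adjusted p of 0.05 (Wald test with Benjamini-Hochberg adjustment). Few genes did at all: these fits called 1 to 25 of 14794 genes. In ES cells leaving out 1 library leaves 1 on a side, so only sizes are given there. In blastocysts, without negative-side library 1, the ratio for Aldh18a1 was 0.26 on the log2 scale, so the value depended on which embryo was left out.

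Atf4, whose product drives many of these genes, had 824, 1372 and 1001 normalised counts on the positive side, against 545, 863 and 662 on the negative side in blastocysts. Negative-side libraries 1 and 3 were again the lowest, by a smaller margin than for most members. The log2 fold change of Atf4 was 0.63 (SE 0.32), with an adjusted p of 0.806 in the authors' deposited table. Over the ATF4 axis, 1 of 20 tested blastocyst genes passed an adjusted p of 0.05 (Chac1), against 0.0986% of all tested genes. At an unadjusted p under 0.05 there were 3 (Chac1, Eif2ak3 and Slc3a2, all above 0), against 6.21% of all tested genes. Of the 20, 18 were above 0, with a median of 0.92, against 48.3% and a median of -0.04 over all tested genes. The list was chosen with earlier results of these data known, so these shares are no test of it. Chac1, a glutathione-degrading enzyme induced under stress, had 116, 250 and 89.1 normalised counts on the positive side against 2.47, 15.6 and 11.5, a log2 fold change of 3.99 (SE 0.80, adjusted p = 0.00213).

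For Chac1, unlike the 7 enzymes named above, negative-side library 2 also lay far below every positive-side library. Eif2ak3, the kinase that senses stress in the endoplasmic reticulum, had a log2 fold change of 1.07 (SE 0.45, adjusted p = 0.667). Slc3a2, the heavy chain of amino acid exchangers, had 0.95 (SE 0.41, adjusted p = 0.682). In 15 of the 20 ATF4-axis genes with a mean of at least 20, negative-side libraries 1 and 3 lay below the other 4. They did so for 7 of the 10 enzymes and for 13.9% of recovered genes with a mean of at least 20 and an adjusted p-value. The 20 genes of this count are not the 20 tested ones. They include Atf5 and Cebpb, which had no adjusted p-value and held the pattern, and leave out Eif2ak2 and Slc6a9. The amino acid carrier Slc38a2, named here after its values were seen, had 1126, 1356 and 1278 normalised counts on the positive side, against 59.4, 1166 and 144 on the negative side. Summed over the axis, the libraries held 6618, 9525 and 10024 normalised counts on the positive side, against 2546, 8787 and 2795 on the negative side.

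**Figure D4:**
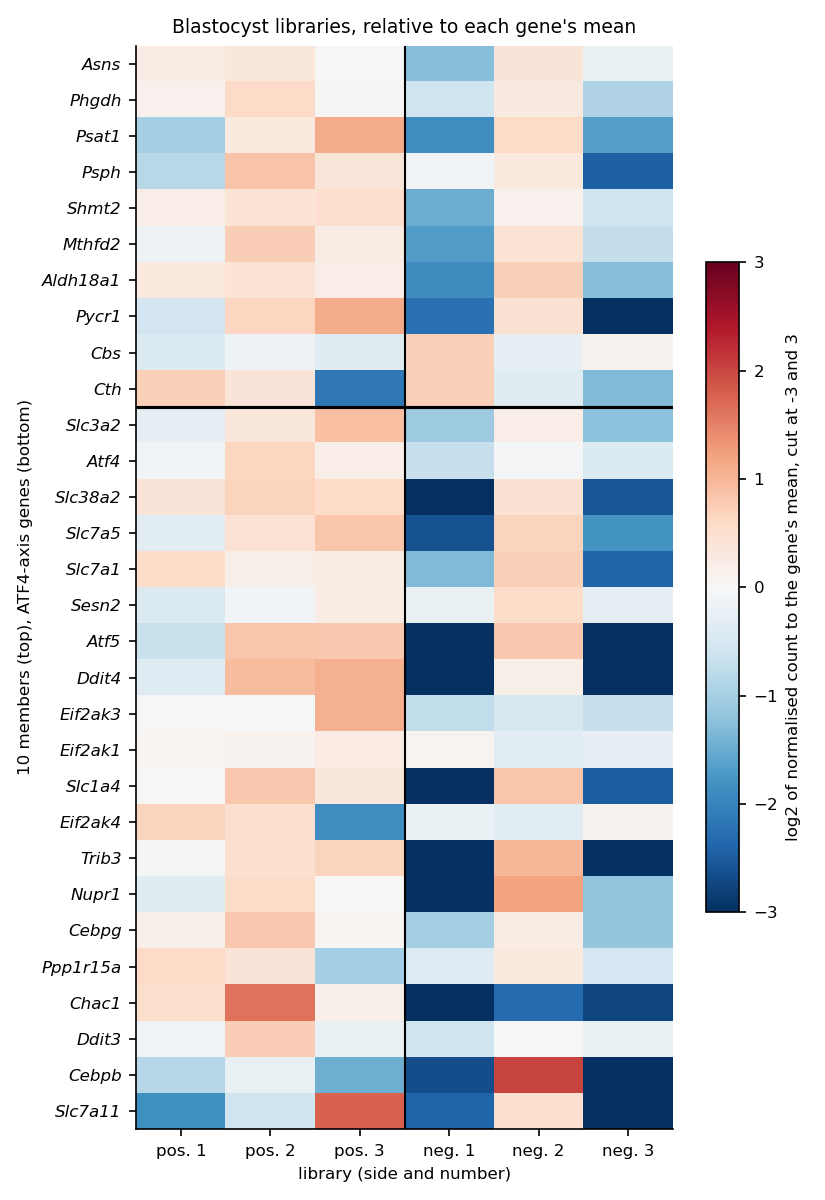
Log2 of the normalised count over the gene's own mean (colour, cut at -3 and 3, with 0.5 added to each) for the 10 enzymes (top block) and 20 ATF4-axis genes with a mean of at least 20 (bottom block) in the 6 blastocyst libraries, with the 3 positive-side libraries left of the line. Negative-side libraries 1 and 3 are blue for most genes of both blocks and negative-side library 2 is not. Libraries 1 and 3 of that side lay below the other 4 for 7 of the 10 enzymes and 15 of the 20 ATF4-axis genes. Chac1, Eif2ak3, Cbs and Cth are among the visible departures from these colours.

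In ES cells none of the 23 tested ATF4-axis genes passed an adjusted p of 0.05 or an unadjusted p under 0.05 in the authors' deposited DESeq2 table, and their median log2 fold change was -0.02. Atf4 had 420 and 396 normalised counts on the positive side, against 419 and 413 on the negative side, a log2 fold change of -0.02 (SE 0.22).

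The lists of neighbouring reactions had medians at or below 0 in blastocysts. They too were chosen with earlier results of these data known. Of the folate and glycine list (cytosolic and other mitochondrial folate enzymes, the glycine cleavage system, folate carriers and purine enzymes that use one-carbon units), 21 were tested, 0 passed an adjusted p of 0.05 and 1 an unadjusted p under 0.05, with a median log2 fold change of -0.01. That 1 was Shmt1, the cytosolic counterpart of Shmt2, at 0.60 (SE 0.27, adjusted p = 0.724). Shmt1 had 959, 1002 and 1152 normalised counts on the positive side, against 665, 658 and 725 on the negative side, so its sides did not overlap and negative-side library 2 was not high. Of the methionine and cysteine list 0 of 15 tested genes passed either threshold, with a median of -0.20.

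Of the proline, glutamate and aspartate list, 15 of 19 tested blastocyst genes lay below 0, where 48.3% of all tested genes lay above 0. The median of the list was -0.40, against -0.04 over all tested genes, and 0 of its genes passed an adjusted p of 0.05. The 2 with an unadjusted p under 0.05 were Ass1, which uses aspartate to make argininosuccinate, at -1.24 (SE 0.37, adjusted p = 0.242), and Got1, the cytosolic aspartate aminotransferase, at -0.86 (SE 0.44, adjusted p = 0.788). Got1 had 680, 386 and 297 normalised counts on the positive side, against 1066, 384 and 1033 on the negative side; like Cbs, it was highest in negative-side libraries 1 and 3. Both libraries lay above the other 4 for 14.5% of recovered genes with a mean of at least 20.

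In ES cells 0 genes of these 3 lists passed an adjusted p of 0.05 in the authors' deposited DESeq2 table. Among those at an unadjusted p under 0.05 were the folate receptor Folr1 at -0.56 (SE 0.27) and the glycine decarboxylase Gldc at 0.47 (SE 0.23). The medians were 0.07 for folate and glycine over 21 tested genes, 0.05 for methionine and cysteine over 13, and 0.01 for proline, glutamate and aspartate over 15.

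Markers of the embryo's cell types were also looked at. All 8 pluripotency markers were detected in blastocysts. Their summed normalised count was 1860, 961 and 902 in positive-side libraries 1, 2 and 3, against 2176, 1857 and 2512 on the negative side. Positive-side library 1 and negative-side library 2 were thus nearly level. Of the 8, 6 were below 0 and 2 above, Sox2 (0.03) and Esrrb (0.003). None of the 8 passed an adjusted p of 0.05. At an unadjusted DESeq2 p under 0.05 there were 3, all below 0, where 6.21% of all tested genes were called. Of the 8 trophectoderm markers 3 had an unadjusted DESeq2 p under 0.05: the keratins Krt8 (log2 fold change -0.87) and Krt18 (-0.63) below 0 and Gata3 (0.52) above 0, and 5 of 8 were above 0 in all. The reads of Krt8, Krt18, Gata3 and Cdx2, the most abundant of them, were not recovered, so no sum is given. Of the 6 primitive endoderm markers 4 were below 0 and 2 above: Sox7 (3.27, unadjusted p under 0.05) and the most abundant of the 6, Dab2 (0.25). None of these 14 markers passed an adjusted p of 0.05. Of 8 fibroblast markers 6 were at 0 in all blastocyst libraries. In ES cells all 8 pluripotency markers were detected, with sums of 3678 and 4585 on the positive side against 5075 and 5787 on the negative side. There all 8 fibroblast markers were detected, and the 7 with recovered reads summed to 1096 and 1462 on the positive side, against 1293 and 2704 on the negative side. Fn1 ran from 913 to 1255 in the 4 libraries and made up most of the sum in all but negative-side library 2; it had a mean of 912 in blastocysts too. The other 6 were highest in negative-side library 2: Col3a1 had 865 normalised counts there and 44.7 to 73.7 in the other 3 libraries, Col1a2 294 against 54.0 to 84.6, and Postn 127 against 0 to 2.395. That library is the one without which the log2 fold change of Cbs, with no prior, was -0.43. Of the 8 fibroblast markers in ES cells, 7 had a deposited log2 fold change below 0. Thy1, whose reads were not recovered, was above 0 (0.19, SE 0.33). The part of cell-type make-up and of feeder RNA in the members' values was not tested.

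Levels can be compared between genes only per length, so the mean normalised count was divided by the kilobases of merged exons in GENCODE M21. In blastocysts the order was Psat1 (363 per kilobase), Asns (322), Phgdh (320), Aldh18a1 (199), Shmt2 (138), Mthfd2 (80.4), Cbs (68.6), Pycr1 (36.0), Psph (26.0) and Cth (26.0). The ranges of the libraries overlapped for all 9 pairs of neighbours in this order, so no neighbouring step exceeds the spread between embryos. Further apart in the order the ranges separated: Phgdh, the opening enzyme of the serine pathway, ranged from 170 to 474 per kilobase and Psph, its closing enzyme, from 4.65 to 47.4.

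The ES cell order began with Asns (415 per kilobase) and Cth (257) and went on with Psat1 (115), Shmt2 (98.9), Aldh18a1 (84.2), Phgdh (70.9), Mthfd2 (56.9), Psph (21.4), Pycr1 (6.65) and Cbs (2.88). Here the libraries of 4 of 9 neighbouring pairs overlapped, and Asns lay above Cth, and Cth above Psat1, in every library. Cth thus had rank 10 in blastocysts, level with Psph, and rank 2 in ES cells, and Cbs rank 7 in blastocysts and rank 10 in ES cells. The 2 tables come from different library methods and were normalised separately, so this change of rank was not tested.

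**Figure D5:**
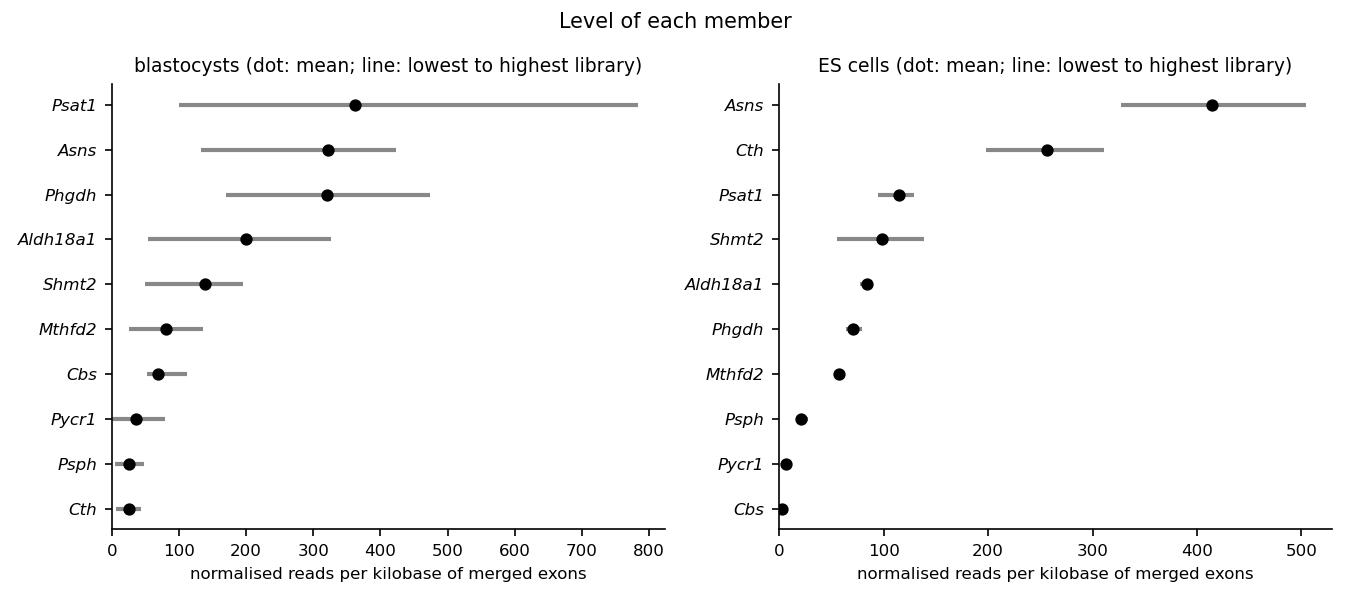
Normalised reads per kilobase of merged exons (horizontal axis, from 0) of the 10 enzymes in blastocysts (left) and ES cells (right), each in its own order, with the mean as a dot and the lowest to highest library as a line. Psat1 has the longest line in blastocysts (100 to 784), and Asns and Cth stand above the rest in ES cells.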

How the data were processed

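RNA-seq libraries of 12 samples were made and processed by the authors. Per the submitters' processing notes, the tools named are STAR 2.4.0b, featureCounts (Subread 2.0.1), SAMtools, bedtools and DESeq2 1.34.0 on GRCm38, with no role or order given. Per the file headers, each deposited table holds the authors' DESeq2 output: a mean of normalised counts (a signal that is not a whole count), a log2 fold change with its standard error, the Wald statistic (a score), and a p-value with a Benjamini-Hochberg adjusted p-value. The authors' deposited p-values are the test used throughout, with adjusted p under 0.05 as a call, and 95% intervals are normal intervals from the deposited standard errors.

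Within a library every read adds the same step to a deposited mean. These steps were found from low means, and the whole reads that give both the mean (to 15 significant digits) and the deposited log2 fold change were kept. This gave exactly 1 solution for 14794 of 15209 tested blastocyst genes (97.3%), for 10571 of 10739 tested ES cell genes (98.4%), and for all 10 members in both. In ES cells the fit needed a zero-centred normal prior on the fold change (SD 0.66 on the log2 scale), so those fold changes are shrunken, and they were also recomputed without it. Blastocyst genes with a mean above 1000 outside the lists were not solved. Normalised counts are reads divided by the size factor. Of blastocyst counts above 0, 94.2% to 96.9% per library were even numbers; whether both reads of a pair were counted was not tested. No molecular identifiers are given, so amplified copies cannot be set apart and floors cover counting error only. There were 0 other columns of per-sample values. The calculations were tested on simulated data and run in Python 3 with numpy, scipy and numba.

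All 10 members were named. Of the other pathway lists, genes with adjusted p under 0.05 and up to 3 per list and table with the smallest unadjusted p under 0.05 and a mean of at least 20 were named, with Atf4 and Dis3l always. Some genes that this rule names are not reported here. The members and lists were chosen with earlier results of these data known.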

Additional observations from a re-analysis of the deposited data

How the results depend on the processing

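In both materials 0 of 10 members were called at an adjusted p under 0.01. The same held with the adjustment run over every gene with a p-value or over genes with a mean of at least 50. Adjusted over every gene with a p-value, 13 of 17320 blastocyst genes and 26 of 13009 ES cell genes were called in all. At a mean of at least 50 these were 8 of 7405 and 39 of 6109. Alternatives chosen after seeing the data also called 0 of 10 members. They were fits repeated on the recovered reads (15 of 14794 and 27 of 10571 genes called), the ES cell prior taken out, and each blastocyst library left out. At an unadjusted p under 0.05, 1 of 10 members was called in blastocysts. In blastocysts 8 to 9 of 10 members were above 0 with a library left out, and in ES cells 1 to 8 were: 1 without positive-side library 1 and 8 without positive-side library 2. With a library left out, the ratio of recovered reads kept the direction of the log2 fold change in 58 of 60 blastocyst values and 29 of 40 ES cell values. Those that reversed were Cth in blastocysts (-0.28 to 0.86) and, in ES cells, Asns (-0.34 to 0.28), Phgdh (-0.13 to 0.18), Psph (-0.34 to 0.41), Shmt2 (-1.04 to 0.0046), Aldh18a1 (-0.16 to 0.022), Pycr1 (-0.61 to 1.03) and Cth (-0.10 to 0.45); the cause was not tested. Sizes moved too: in blastocysts Asns ran from 0.07 to 0.85, Phgdh from 0.36 to 1.01, Psat1 from 0.29 to 2.12, Psph from 0.17 to 1.12, Shmt2 from 0.55 to 1.338, Mthfd2 from 0.36 to 1.44, Aldh18a1 from 0.26 to 1.85, Pycr1 from 0.90 to 3.77 and Cbs from -0.74 to -0.24, and Cbs in ES cells from -1.60 to -0.42. Centring on the median, plain ratios and undoing the shrinkage reversed none. Filters at a mean of at least 50 or 10 moved each list's median by less than the median standard error of its genes, but at 50 the sign changed for methionine and cysteine (0.05 in blastocysts, -0.03 in ES cells) and for proline, glutamate and aspartate in ES cells (-0.01), and searching only the bases before the start left 2 members with a promoter match. Per kilobase of the longest transcript, Psat1 stood at 590 and Mthfd2 at 134 in blastocysts, Cth took rank 9 and Psph rank 10 there, and Mthfd2 rank 6 and Phgdh rank 7 in ES cells; in ES cells Psat1 stood at 186, Psph at 32.2, Mthfd2 at 95.2 and Cth at 395. No paired analysis was possible because the tables carry no replicate numbers. Depth limits Cbs and Pycr1 in ES cells and Cth, Psph and Pycr1 in blastocysts. Every value is limited by 3 embryos or 2 ES cell libraries per side, and whether those 2 are separate cultures is not stated.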
